A study of Mus musculus with 4 samples.

Results

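G3BP1, its paralogue G3BP2 and 7 proteins that bind them were examined in total RNA from mouse macrophages. The genes were taken by symbol, and G3bp1, G3bp2, Caprin1, Usp10, Ubap2l, Ubap2, Nufip2, Prrc2c and Fmr1 were 9 of the 34745 rows of the count table. All 9 passed the filter on low counts with the libraries of both genotypes. The cells were primary macrophages, described in the study's text as bone marrow-derived macrophages (BMDMs), grown in serum-containing DMEM with no stimulus named in the labels. The libraries labelled WT came from mice with a floxed G3bp1 gene (G3bp1 f/f), and those labelled KO from G3bp1 f/f mice that also carried Lyz2-Cre (G3bp1 mac-/-), so both genotypes carried the floxed allele and Cre was present in KO alone. The Lyz2 promoter that drives Cre is also active in other myeloid cells, such as neutrophils. The part of G3bp1 flanked by loxP sites was not given in the text of the sources used here. The study's picture of how the knockout mice were made was not read. Each genotype had 2 libraries, numbered 1 and 2, and the labels do not say what a number marks, the age or sex of the mice, or whether the libraries were from separate animals or cultures. P-values therefore measure the spread between these libraries, which may be technical.

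Stress granules (SGs) gather mRNA and RNA-binding proteins in the cytoplasm when translation initiation stalls. G3BP1 and G3BP2 dimerise and bind RNA, and together they form the scaffold on which SGs assemble. CAPRIN1 and USP10 compete for the same pocket of G3BP, where CAPRIN1 favours condensation and USP10 restrains it. UBAP2L and UBAP2 are related proteins that bind G3BP and help to nucleate SGs. NUFIP2 and FMRP, the product of Fmr1, are RNA-binding proteins that interact with each other, and PRRC2C is a large translation-linked protein that is recruited to SGs.

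The RefSeq promoter windows of the targeted gene and its paralogue are shown because these genes took opposite signs between genotypes. Each window runs from 250 bases before to 50 bases after a start site on GRCm38.p6, and capitals mark CCAAT boxes (CCAAT on either strand) and the palindrome GCATGC.
G3bp1, chr11:55469502-55469801, plus strand: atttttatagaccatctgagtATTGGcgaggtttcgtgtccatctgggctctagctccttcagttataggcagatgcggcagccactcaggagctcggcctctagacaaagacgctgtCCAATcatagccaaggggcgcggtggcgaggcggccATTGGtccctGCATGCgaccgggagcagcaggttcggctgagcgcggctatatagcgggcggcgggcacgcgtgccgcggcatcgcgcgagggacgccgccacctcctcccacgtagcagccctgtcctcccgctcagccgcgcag
G3bp2, chr5:92083549-92083848, minus strand: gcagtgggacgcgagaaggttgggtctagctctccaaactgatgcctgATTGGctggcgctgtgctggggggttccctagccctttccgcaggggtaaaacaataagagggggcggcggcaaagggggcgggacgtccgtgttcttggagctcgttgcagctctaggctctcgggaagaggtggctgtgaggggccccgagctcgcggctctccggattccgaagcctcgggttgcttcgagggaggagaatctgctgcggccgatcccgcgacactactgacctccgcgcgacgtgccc
The G3bp1 window held 3 CCAAT boxes and 1 GCATGC, and the G3bp2 window held 1 CCAAT box and no GCATGC. Of 3 G3bp2 windows in RefSeq, the one printed is nearest to the gene start in the file. Both windows were rich in CpG, with 30 CpG and 64% G+C for G3bp1 and 26 CpG and 64.7% G+C for G3bp2. The medians over all 32851 windows were 7 CpG and 52.7% G+C.

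Promoter windows were matched for all 9 genes and held between 8 CpG (Usp10) and 43 CpG (Caprin1). The E-box CACGTG was present in at least 1 window of 5 genes (G3bp2, Ubap2l, Ubap2, Prrc2c and Fmr1), against 8.09% of the 27025 genes with a window. GCATGC, the core of the NRF1 site, was present in 3 genes (G3bp1, G3bp2 and Fmr1), against 8.93% of all genes. In G3bp2 both motifs lay in the window of a distant start site and not in the one printed. CCAAT was present in 4 genes against 41.1%, the GC box GGGCGG in 7 genes against 38.2%, the CRE half-site TGACG in 6 genes against 23.1%, and TATAAA in 1 gene, G3bp1, against 15.7%. All motifs were searched on both strands, and a match describes letters in the window and not a bound site.

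Between 16724241 and 19747909 counts fell on genes in a library, and 12418 genes were tested. Levels are given as CPM, that is, counts per 1000000 of the library total after TMM (trimmed mean of M values) normalisation, and 3 counts, the limit that a count of 0 allows, corresponded to 0.152 to 0.188 CPM, counting error only. Calls required an adjusted p below 0.05 together with an absolute log2 fold change above 1. By this rule 0 of the 9 genes were called in the quasi-likelihood test of edgeR, as were 0% of all tested genes. At an unadjusted p under 0.05 it found 0 of the 9 genes, against 823 genes or 6.63% of those tested. Other tools called more over the whole table (181 genes with the DESeq2 Wald test and 174 with the edgeR exact test), and 0 of the 9 were among them.

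The targeted gene was examined first. G3bp1 (ENSMUSG00000018583, chr11:55469685-55504838 on GRCm38, plus strand) had 1691 and 2875 counts in the libraries labelled WT, and 1307 and 2296 counts in those labelled KO. These were 104 and 180 CPM against 70.1 and 117 CPM, and KO replicate 2 lay above WT replicate 1. Mean levels of 142 ± 53.8 CPM for WT and 93.3 ± 32.9 CPM for KO (SD, n = 2 each) put KO at 65.6% of WT. The library numbered 2 exceeded the one numbered 1 by 1.73-fold in WT and 1.66-fold in KO, a larger step than that between genotypes. On the log2 scale the difference was -0.61 (95% confidence interval -1.61 to 0.40, edgeR adjusted p = 0.904), and the ratio of KO to WT was -0.57 between the libraries numbered 1 and -0.63 between those numbered 2. The pooled value ranged from -1.02 without KO replicate 2 to -0.19 without WT replicate 2. The longest annotated transcript has 12 exons, of which the last makes up 80.3% of its 6703 bases. Counts over the whole gene do not resolve the loss of a part of it, so the KO label was not checked by them. The study itself reports efficient loss of G3BP1 in macrophages of such mice, measured as mRNA and protein in BMDMs.

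**Figure D1:**
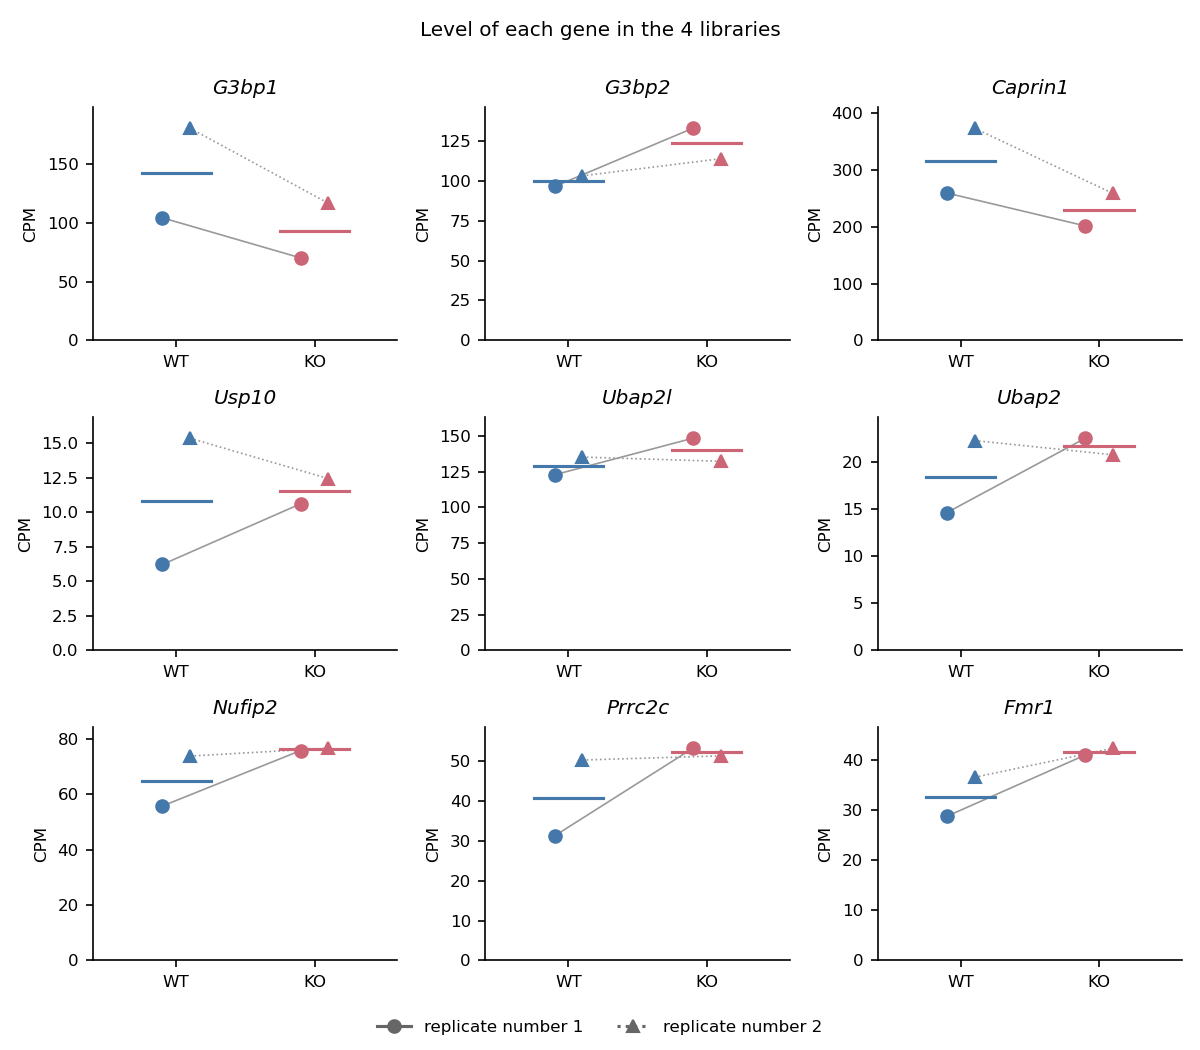
CPM (vertical axes, from 0) of the 9 genes in the 2 libraries labelled WT (blue) and the 2 labelled KO (red), with circles for replicate number 1, triangles for number 2, horizontal bars for group means and grey lines joining equal numbers. G3bp1 and Caprin1 were lower in KO within both numbers, and G3bp2, Nufip2, Prrc2c and Fmr1 had both KO libraries above both WT libraries.

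The paralogue G3bp2 (ENSMUSG00000029405, chr5:92052146-92083719, minus strand) had counts of 1564 and 1643 in WT and of 2477 and 2240 in KO. These were 96.4 and 103 CPM against 133 and 114 CPM, so the KO libraries were both higher than either WT library. Means were 99.7 ± 4.73 and 123 ± 13.5 CPM (SD, n = 2 each). The log2 fold change of 0.31 was not separated from 0 (95% confidence interval -0.27 to 0.88, edgeR adjusted p = 0.930). The log2 ratio was 0.46 in number 1 and 0.14 in number 2, both in the same direction, and the pooled value was 0.19 without KO replicate 1. Unlike G3bp1, G3bp2 was nearly level across the numbers within WT, at 1.07-fold.

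Among the competing ligands of the G3BP pocket, Caprin1 (chr2:103762941-103797649, minus strand) was the most abundant of the 9 genes by counts. It had counts of 4208 and 5951 in WT and of 3756 and 5093 in KO. In CPM these were 259 and 373 against 201 and 259, and the higher KO library lay just under the lower WT library (258.6 against 259.2 CPM). The mean was 316 ± 80.6 CPM for WT and 230.0 ± 40.4 CPM for KO (SD, n = 2 each), a log2 difference of -0.46 that did not pass the test (95% confidence interval -1.21 to 0.29, edgeR adjusted p = 0.904). The log2 ratios within the numbers were -0.36 and -0.53. Leaving out WT replicate 1 or 2 gave pooled values of -0.69 and -0.20, and leaving out KO replicate 1 or 2 gave -0.29 and -0.65. Of the 7 partners, Caprin1 was the one whose KO libraries were both below WT, a pattern found in 16.9% of all tested genes.

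Usp10 (chr8:119910360-119957560, plus strand), which encodes a deubiquitinase, was the least abundant of the 9 genes. It had counts of 101 and 245 in WT and of 198 and 245 in KO, or 6.22 and 15.4 against 10.6 and 12.4 CPM. Both KO values lay between the WT values. The log2 fold change was 0.10 with a wide 95% confidence interval of -1.09 to 1.28 (edgeR adjusted p = 0.990), and the ratio within the numbers changed sign, from 0.77 to -0.30. Leaving out WT replicate 1, the low library, turned the pooled value to -0.41, and leaving out KO replicate 2 turned it to -0.023. No direction can be read for this gene at the spread of these libraries.

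The UBA-domain partners did not separate by genotype. Ubap2l (chr3:90000140-90052628, minus strand) had counts of 1993 and 2155 in WT and of 2766 and 2604 in KO, or 123 and 135 against 148 and 132 CPM. Its log2 fold change was 0.12 (95% confidence interval -0.45 to 0.69, edgeR adjusted p = 0.974), and its ratio was 0.27 in number 1 and -0.032 in number 2. Its pooled value lay between 0.036 (KO replicate 1 left out) and 0.20 (KO replicate 2 left out). A gene on the opposite strand, 4933434E20Rik, overlaps it and held up to 1326 counts in a library, and strand use in the counting is not stated. Ubap2 (chr4:41194313-41275144, minus strand) was lower, with counts of 238 and 356 in WT and of 421 and 410 in KO, or 14.7 and 22.3 against 22.6 and 20.8 CPM. For Ubap2 the log2 fold change was 0.23 (95% confidence interval -0.49 to 0.95, edgeR adjusted p = 0.964), with ratios of 0.62 and -0.10, and the pooled sign turned to -0.037 without WT replicate 1.

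Nufip2, Prrc2c and Fmr1 shared with Ubap2 a pattern in which WT replicate 1 was low and the other 3 libraries lay closer together. Nufip2 (chr11:77686155-77741921, plus strand) had counts of 906 and 1178 in WT and of 1415 and 1511 in KO, or 55.8 and 73.9 against 75.9 and 76.7 CPM. Prrc2c (chr1:162670725-162740556, minus strand) had counts of 507 and 801 in WT and of 992 and 1010 in KO, or 31.2 and 50.2 against 53.2 and 51.3 CPM. Fmr1 (chrX:68678541-68717963, plus strand) had counts of 468 and 584 in WT and of 766 and 836 in KO, or 28.8 and 36.6 against 41.1 and 42.4 CPM. In all 3 genes both KO libraries were higher than either WT library, for Prrc2c only just (51.3 against 50.2 CPM). The log2 fold changes were 0.23 for Nufip2 (95% confidence interval -0.39 to 0.86), 0.36 for Prrc2c (-0.40 to 1.12) and 0.35 for Fmr1 (-0.25 to 0.95), with edgeR adjusted p of 0.961, 0.943 and 0.912. Within number 1 the log2 ratios were 0.44, 0.77 and 0.51, and within number 2 they were 0.054, 0.029 and 0.21. Without WT replicate 1 the pooled values were 0.050, 0.060 and 0.19, and without WT replicate 2 they were 0.42, 0.71 and 0.50.

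With G3bp2, 4 of the 9 genes had both KO libraries above both WT libraries, against 20.0% of all tested genes, and 1 of 9, Caprin1, had both below, against 16.9%. The median log2 fold change was 0.23 over the 9 genes, against 0.041 over all tested genes. Between the libraries numbered 1 the median log2 ratio was 0.46 over the 9 genes and 0.11 over all genes, and 7 of the 9 were above 0, as were 7103 of the 12418 tested genes. Between those numbered 2 it was -0.032 and -0.0013, and 4 of the 9 were above 0, as were 6179 of all tested genes. The positive median was thus seen between the libraries numbered 1 and not between those numbered 2.

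Cell type markers were summed in each library, since in bulk RNA fewer cells of a type and less RNA per cell cannot be told apart. The 9 macrophage markers were all detected and summed to 26341 and 24295 CPM in WT, and 21094 and 24470 CPM in KO. The 6 stromal markers were all detected and their sum was higher in KO, at 59.3 and 67.0 CPM in WT and 249 and 220 CPM in KO. Sums were lower in KO for neutrophil markers (20.2 and 20.9 against 7.24 and 10.9 CPM, with Ly6g, Elane, Mpo and Ngp at or under 3 counts in every library), B cell markers (21.4 and 22.5 against 11.6 and 10.9), mast cell and basophil markers (34.0 and 36.5 against 18.2 and 22.0), erythroid markers (10.1 and 7.15 against 1.88 and 2.39) and T cell markers (1.23 and 1.38 against 0.483 and 0.863). Dendritic cell markers were between 0.986 and 4.37 CPM, with Siglech and Xcr1 at or under 3 counts. The part of these cell types in the values of the 9 genes was not tested.

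The log2 ratio of KO to WT followed gene length in the libraries numbered 1. When all tested genes were divided by length into 10 bins of equal size, the median ratio rose from -0.62 in the shortest bin (median length 1118.5 bases) to 0.42 in the longest (16613 bases). Between the libraries numbered 2 the same medians were -0.10 in the shortest bin and 0.029 in the longest. By the length behind the deposited FPKM, the median of the 9 genes was 14065 bases, against 5224 over all tested genes. The median trend at their lengths was 0.26 in number 1 and 0.037 in number 2. By the longest annotated transcript the medians were closer, at 4409 bases for the 9 genes and 3284 over all tested genes. The length behind the FPKM was used for the bins and the trend. It equalled the sum of distinct annotated exons, overlapping ones included, in 68.2% of the genes compared and not in all. For Usp10 it was 9520 bases, under the 9559 bases of the union of its exons.

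**Figure D2:**
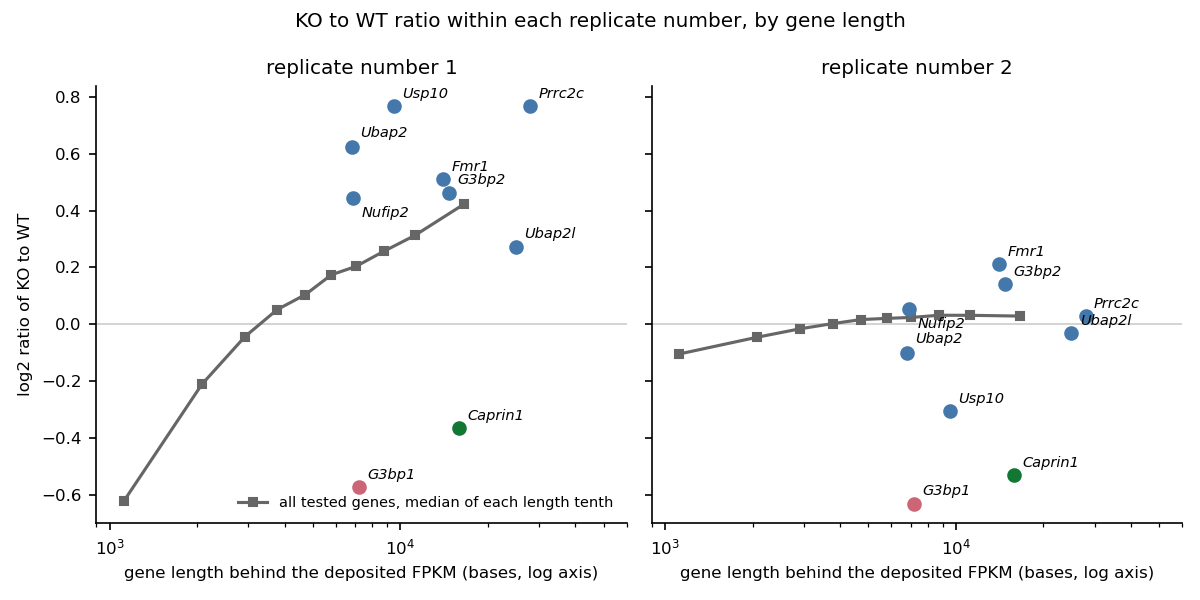
Log2 ratio of KO to WT (vertical axis) against gene length behind the deposited FPKM (bases, log axis) between the libraries of replicate number 1 (left) and of number 2 (right). Grey squares are medians of all tested genes in 10 bins of length, and rise from -0.62 to 0.42 on the left. G3bp1 (red) and Caprin1 (green) lie below the line in both panels. Of the other 7 genes (blue), Usp10, Ubap2l, Ubap2 and Nufip2 lie closer to the line on the right, whereas G3bp2 and Fmr1 lie further above it.

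After the trend was subtracted, the log2 ratio of G3bp1 was -0.65 in number 1 and -0.64 in number 2. Caprin1 was at -0.66 and -0.57, further below 0 than without the correction. G3bp2 kept 0.19 and 0.11 of its 0.46 and 0.14, and Fmr1 kept 0.25 and 0.18. The trend was centred on its median, so a shift common to all genes stayed in these values. The median ratio of all tested genes before correction was 0.11 in number 1 and -0.0013 in number 2. Nufip2 was at 0.38 and 0.048, and Prrc2c at 0.35 and -0.021. Usp10 (0.61 and -0.33) and Ubap2 (0.56 and -0.11) differed in sign between the numbers, and Ubap2l was at -0.12 and -0.080.

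Length can be defined in several ways, and the correction was repeated with 3 of them (the length behind the FPKM, the union of annotated exons and the longest annotated transcript). The pooled log2 fold change of G3bp1 was -0.64, -0.70 and -0.79 with these, and that of Caprin1 was -0.61, -0.61 and -0.64. G3bp2 stayed above 0, at 0.15, 0.16 and 0.22, against 0.31 without correction. Fmr1 was at 0.21, 0.21 and 0.26, Nufip2 at 0.20, 0.17 and 0.092, Prrc2c at 0.14, 0.14 and 0.072, and Ubap2 at 0.20, 0.21 and 0.14. Ubap2l turned to -0.10 and -0.13 with the first 2 lengths and was 0.051 with the longest transcript, and Usp10 was within 0.061 of 0 with each. The median over the 7 partners went from 0.23 to 0.14, 0.14 and 0.072. Over all tested genes it went from 0.041 to 0.055, 0.052 and 0.044. In these edgeR fits, with genotype as the only term, adjusted p was at least 0.843 for each gene.

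**Figure D3:**
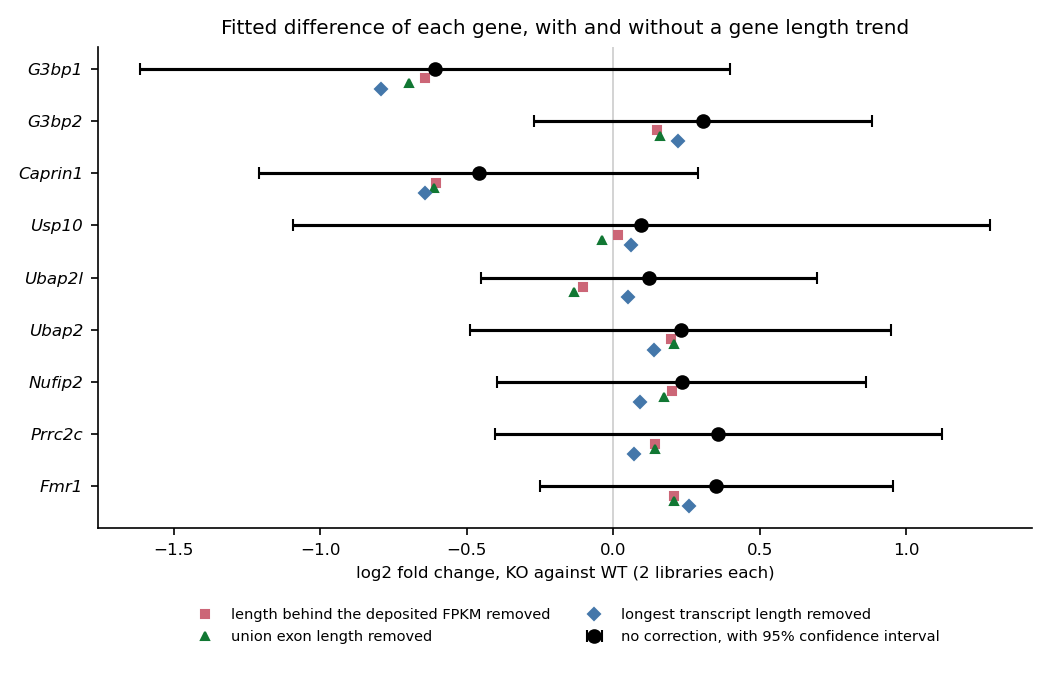
Fitted log2 fold change of KO against WT (horizontal axis, 2 libraries each) for the 9 genes without correction (black, bars are 95% confidence intervals) and after removing the trend with gene length by 3 definitions of length (red squares, green triangles, blue diamonds). The black intervals of all 9 genes include 0, and with each correction G3bp1 and Caprin1 move further below 0 while G3bp2, Prrc2c and Fmr1 move towards it.

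Because G3BP1 and G3BP2 serve the same scaffold role, their balance was compared. The ratio of G3bp2 to G3bp1 counts was 0.925 and 0.571 in WT, and 1.90 and 0.976 in KO, with no overlap between the genotypes. On the log2 scale the ratio was -0.46 ± 0.49 in WT and 0.44 ± 0.68 in KO (SD, n = 2 each), a difference of 0.90. An exact permutation test, two-sided, gave p = 0.333, the smallest that 2 libraries against 2 allow. Differences within the numbers were 1.03 and 0.77. With the length behind the FPKM taken into account the difference was 0.79 and the libraries overlapped (exact permutation p = 0.667), whereas with the union and the longest transcript it was 0.87 and 1.04 and the libraries did not overlap (exact permutation p = 0.333 for each). G3bp2 supplied 48.0% and 36.4% of the summed counts of both genes in WT, and 65.5% and 49.4% in KO. Counts over the whole of G3bp1 do not tell intact transcripts from those of a deleted allele. The ratios, shares and sums given here therefore do not measure G3BP that can act as a scaffold. The sum of both genes was 201 and 283 CPM in WT and 203 and 230 CPM in KO (242 ± 58.6 against 217 ± 19.3, SD, n = 2 each, exact permutation p = 1), and KO less WT was 2.40 CPM in number 1 and -53.1 CPM in number 2. Scaled by the length behind the FPKM, the sum was 26.6 ± 7.82 CPM per kb in WT and 21.4 ± 3.66 in KO and lower in KO within both numbers, by the union it was 31.7 ± 8.17 and 27.4 ± 3.09 and also lower within both, and by the longest transcript it was 44.8 ± 9.15 and 43.1 ± 1.71 with opposite signs (SD, n = 2 each). The libraries overlapped for each of these sums, and with 2 against 2 the test cannot reach the threshold.

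Levels of different genes were compared per kilobase (CPM per kb), and their order depended on the definition of length. With the length behind the FPKM, Caprin1 (mean of 19.9 CPM per kb in WT, from 16.3 to 23.5) and G3bp1 (19.8, from 14.5 to 25.1) led and overlapped, followed by Nufip2 (9.41), G3bp2 (6.76), Ubap2l (5.16), Ubap2 (2.72), Fmr1 (2.33), Prrc2c (1.46) and Usp10 (1.13). Ubap2 and Fmr1, and Prrc2c and Usp10, were also pairs of neighbours whose WT libraries overlapped. With the longest transcript, Caprin1 stayed first at 51.3 CPM per kb, Ubap2l came second at 31.7, and G3bp2 (23.6) and G3bp1 (21.2) overlapped. Ubap2l moved most, and of its 23 annotated transcripts the longest has 4073 bases against a length of 24970 bases behind the FPKM, a ratio of 6.13. The deposited FPKM in WT was 18.7 ± 6.93 for G3bp1 and 6.41 ± 0.244 for G3bp2 (SD, n = 2 each), whereas with the longest transcript their levels overlapped. In KO, Caprin1 had the highest mean and Usp10 the lowest with each of the 3 lengths, but Caprin1 overlapped the gene after it with 2 of them (G3bp1 with the length behind the FPKM and Ubap2l with the longest transcript). G3bp1 and Nufip2 overlapped in KO with each of them.

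**Figure D4:**
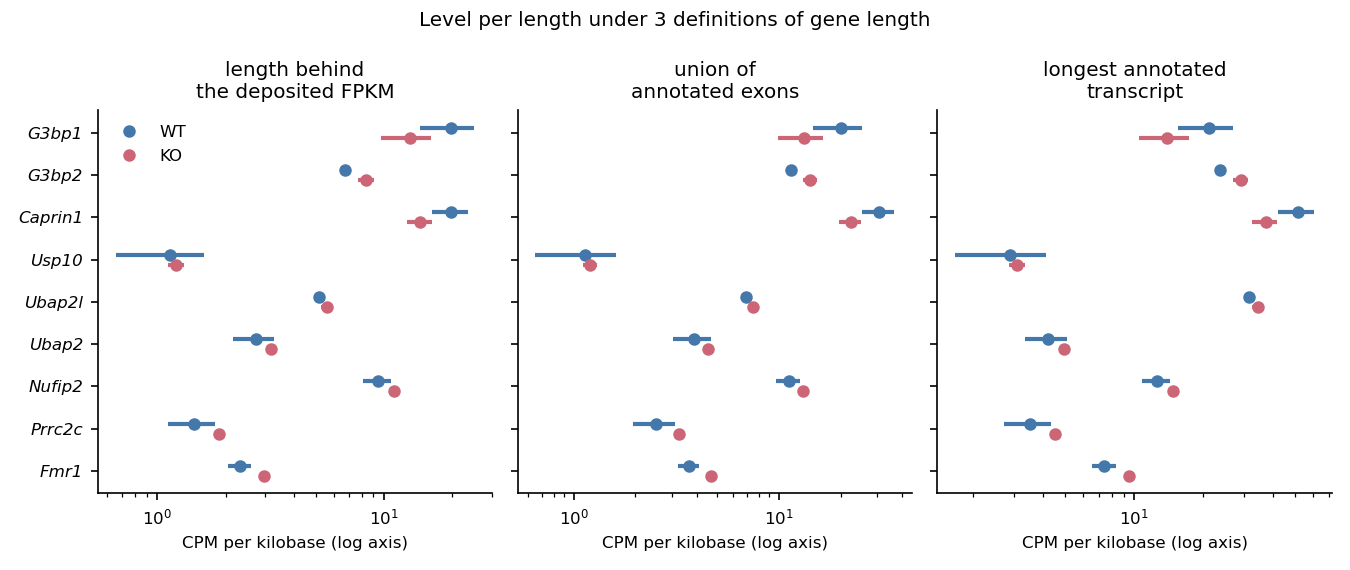
Level of the 9 genes in CPM per kilobase (horizontal, log axes) with 3 definitions of gene length, as mean (points) and range of the 2 libraries (lines) in WT (blue) and KO (red). Caprin1 has the highest mean and Usp10 the lowest with each length, G3bp1 lies above G3bp2 in WT with the first 2 lengths, and Ubap2l moves from 5.16 to 31.7 in WT.

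The pattern of each gene over the 4 libraries was compared by the root mean square difference of centred log2 CPM, where 0 means an identical profile. G3bp1 and G3bp2 were the pair of the 9 genes that differed most, at 0.62. The closest pairs were Nufip2 and Fmr1 (0.061), Ubap2 and Prrc2c (0.078), Ubap2 and Nufip2 (0.085), and G3bp2 and Ubap2l (0.095). Caprin1 was the partner nearest to G3bp1, at 0.18, and ranked 77 among all other tested genes, whereas G3bp2 ranked 7539. The 5 genes with profiles nearest to G3bp1 were Lck (0.047), Map3k8 (0.059), Gm28424 (0.079), Ifi204 (0.089) and Klk8 (0.090), of which Lck, Gm28424 and Klk8 had at most 29 counts in a library. The 5 nearest to G3bp2 were Ptprs (0.0083), Nfatc3 (0.016), Smc3 (0.018), Galnt2 (0.019) and 2610021A01Rik (0.020). These are descriptions over 4 libraries, and genes of one library share its depth and length trend.

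Paralogues of the partners gave 5 more genes, of which 0 were called (0% of all tested genes). In 0 of the 5 were both KO libraries above or both below WT, against 20.0% and 16.9% of all tested genes. Caprin2, the paralogue of Caprin1, was sparse, with counts of 58 and 42 in WT and of 87 and 47 in KO (log2 fold change 0.18). The Fmr1 relatives were near 0, with Fxr1 at 0.019 (1638 and 1719 counts in WT, 1872 and 2189 in KO) and Fxr2 at 0.040 (600 and 745 in WT, 765 and 887 in KO). The Prrc2c relatives were Prrc2a at 0.099 (535 and 766 counts in WT, 866 and 794 in KO) and Prrc2b at -0.053 (405 and 372 in WT, 473 and 417 in KO). The median over the 5 was 0.040, about that of all tested genes (0.041).

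Of 50 other genes for SG proteins, all tested, 0 were called, and 38 had a log2 fold change above 0, as had 6776 of the 12418 tested genes. Their median was 0.15, against 0.041 over all tested genes. The median ratio was 0.30 between the libraries numbered 1 and 0.013 between those numbered 2, the same order as in the 9 genes. Both KO libraries were above both WT libraries in 8 of the 50 and below them in 4 (20.0% and 16.9% of all tested genes). The 2 largest differences among these were in Cnbp, a zinc finger nucleic acid-binding protein, and Pabpc4, a poly(A)-binding protein. Cnbp had counts of 4717 and 4679 in WT and of 2761 and 3712 in KO (log2 fold change -0.80, edgeR adjusted p = 0.550), and Pabpc4 had counts of 258 and 311 in WT and of 489 and 561 in KO (0.63, edgeR adjusted p = 0.686). In the 14 genes for eIF2 subunits, eIF2 kinases and regulators, whose pathway triggers SG assembly, 0 were called and the median was 0.057. Eif2b5 was the 1 gene of these whose libraries did not overlap, with counts of 692 and 717 in WT and of 842 and 963 in KO (0.10).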

How the data were processed

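Total RNA of 4 macrophage libraries was sequenced (2 WT, 2 KO). The authors filtered reads with Seqtk, aligned them with HISAT2 2.0.4 and counted fragments with StringTie 1.3.3b, per the study's methods and the submitters' processing notes. They deposited raw counts and an FPKM value beside each. Tested on the file, the authors' FPKM carries no TMM factor, and its length equalled the sum of distinct annotated exons within 1% in 68.2% of 10547 genes (the union in 8.83%, the longest transcript in 12.8%). The labels name mm39, but 27759 of 34344 shared identifiers, with all 9 genes, had GRCm38 positions (GENCODE M21), which are given.

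The deposited counts were tested in edgeR 4.0.16 under R 4.3.3 (filterByExpr with minimum count 10 and minimum total 15, TMM, genotype as the only term, glmQLFit and glmQLFTest, two-sided, Benjamini-Hochberg adjustment). TMM factors were 0.955 and 0.942 in WT and 1.11 and 0.997 in KO. Ratios within a number had 0.5 counts added. The length correction removed a loess trend (span 0.5), centred on its median, from each library as an offset. Alternatives were DESeq2 1.42.0 size factors and Wald test, no filter or a mean CPM of at least 1, the edgeR exact test, limma 3.58.1 on log2(FPKM + 1) or log2(FPKM + 0.1) with a filter of 0.1 FPKM in 2 libraries, a replicate term, no minimum fold change, and each library left out. Corrections with other lengths and with GC content, and the replicate term combined with no minimum fold change (with or without a length correction), were added after seeing the data. The code was tested on simulated data.

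The 9 genes and all lists were chosen with earlier results of these data known. The rule named the 9 genes, 5 paralogues, the 5 genes nearest in profile to G3bp1 and to G3bp2, and the 2 largest differences among non-overlapping genes of the other lists. Eif2b5 and 4933434E20Rik were named after their values were seen. Reads carried no molecular identifiers, so limits cover counting error only.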

Additional observations from a re-analysis of the deposited data

How the results depend on the processing

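Of 180 refitted fold changes of the 9 genes, 172 kept their sign and 8 turned. Ubap2l turned to -0.10 with the correction for the length behind the FPKM (-0.10 also with a replicate block) and to -0.13 with the union exon length (-0.13 also with a replicate block). Usp10 turned to -0.039 with the union exon length. Leaving out each library in turn moved Usp10 between -0.41 and 0.86, Ubap2 between -0.037 and 0.53, G3bp1 between -1.02 and -0.19, Caprin1 between -0.69 and -0.20, and G3bp2 between 0.19 and 0.41, with 0 genes called over the whole table in each. Such a fit assumes that the lone library varies like the pair. Without a replicate term, adjusted p of the 9 genes stayed between 0.489 and 1 in every setting run. Over the whole table, 181 genes were called by the DESeq2 Wald test, 174 by the edgeR exact test and 2 by limma on log2(FPKM + 0.1), and 823 had an unadjusted p under 0.05 (576 higher and 247 lower in KO). The median log2 fold change of all genes was 0.041 with TMM and 0.18 on the deposited FPKM with 0.1 added, which carry no TMM factor. The cause of these changes was not tested.

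The labels give replicate numbers but not what they mark, and 2 pairs do not establish a pairing. Same-numbered libraries deviated together (correlation 0.692 across genes), and a replicate block lowered the common biological coefficient of variation from 0.343 to 0.169. With the block, calls over the whole table rose to 664 (610 with the length correction, 498 with union exon length, 491 with the longest transcript, 661 with GC correction, 974 with no minimum fold change). Of the 9 genes, 0 were called with the block alone, where G3bp1 was at -0.60 (edgeR adjusted p = 0.0853). With the block, a length correction and no minimum fold change, a combination chosen after seeing the data, 2 of the 9 passed with each of the 3 lengths, both lower in KO. These were G3bp1 (-0.64, -0.71 and -0.82, edgeR adjusted p = 0.0117, 0.0112 and 0.00314) and Caprin1 (-0.61, -0.62 and -0.65, edgeR adjusted p = 0.0182, 0.0250 and 0.0114). Between 1.61% and 2.93% of all tested genes passed in that direction in the same fits. Cnbp and Pabpc4, named above, were at -0.81 and 0.63 with the block alone (edgeR adjusted p = 0.0102 and 0.0817). Neither reached the minimum fold change.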
